A study of Mus musculus with 4 samples.

Results

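The genes of fatty acid synthesis, storage and lipolysis were followed in 4 liver tumours of mice, 2 from animals fed the gut bacterium Akkermansia muciniphila (AKK 1 and AKK 2) and 2 from animals given PBS (PBS 1 and PBS 2). The group holds 41 genes, listed by name from the pathway, and all 41 were found among the 48526 gene identifiers of the count tables. AKK mice were C57BL/6 animals given 5000000000 colony-forming units of the bacterium by mouth for 2 weeks, and then through 2 weeks on the MCD diet, which lacks methionine and choline and produces fatty liver. PBS mice were C57BL/6 animals given PBS in its place before and during the same diet. Animals of both groups then had RIL-175 hepatoma cells that carry luciferase implanted in the liver, and Akk feeding stopped for 6 days after surgery before it went on to the end. The sources used here give neither age nor sex. The titles call the libraries of a group biological replicates without naming the animals, and the p-values cover only the spread among these 4 libraries. The deposited tables are named by different patterns in the AKK and PBS groups. Should the patterns stand for cohorts, the effects of cohort and of feeding cannot be told apart.

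Cells make fatty acids from cytosolic acetyl-CoA, which acetyl-CoA carboxylase and fatty acid synthase turn into palmitate, and desaturases and elongases then vary the chain. Acyl chains are built onto glycerol to give triglyceride, which is kept in lipid droplets coated by perilipins and enlarged by CIDE proteins. Lipases release the fatty acids again, and fatty acid-binding proteins carry them in the cytosol. In the liver this system sets how much fat hepatocytes hold, and hepatocellular tumours often run fatty acid synthesis at a high rate.

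The tables held 55360237 (AKK 1), 59027227 (AKK 2), 52500328 (PBS 1) and 48912489 (PBS 2) reads on genes. Levels are given as CPM (library-scaled counts) after TMM scaling and are not corrected for gene length. AKK 1 stood apart by its mitochondrial reads, 3.92% of the total, against 2.33% in AKK 2 and 1.78 and 1.64% in PBS 1 and PBS 2. Of 6 markers of hepatoma and epithelial cells, Krt8, Krt18, Krt19 and Afp overlapped between the groups, with Krt8 at 2511 and 2610 CPM in AKK and 1443 and 2632 CPM in PBS. Epcam had 127 and 197 reads in AKK against 7 and 1 in PBS, and Gpc3 had 1 and 4 reads in AKK against 39 and 16 in PBS. Markers of other cell types are given where they touch a result.

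Of the 41 members, 36 passed the filter on low counts and were tested. The other 5 were Thrsp, Mogat1, Plin1, Plin5 and Pnpla3. No member passed an adjusted p of 0.05 in edgeR's quasi-likelihood test (0 of 36), in which 0.00572% of the 17479 genes tested were called. Without adjustment, edgeR gave a p under 0.05 for 9 members, or 25.0% of those tested against 15.3% of all genes. Of these, 6 were higher in AKK, where 6.7% of all genes were, and 3 were lower, where 8.62% of all genes were. DESeq2 called 3 members, Fabp1 and Lpl as higher and Fabp5 as lower, or 8.33% against 5.02% of all genes, of which 2.04% were called as higher and 2.98% as lower. The 9 members include Fabp1 and Mlxipl, and the DESeq2 calls include Fabp1. Both genes passed the filter on low counts through their AKK reads, so that they had to differ to be tested. limma-voom called 0 members and 0 of all 17479 genes. On simulated counts both edgeR and DESeq2 made more false calls than the threshold allows, and DESeq2 made many more than edgeR. A gene called by DESeq2 alone thus rests on weaker ground. The members as a list did not lean one way. Their median log2 fold change, AKK minus PBS, was 0.09, with 21 positive and 15 negative, beside a median of 0.02 and 51.8% positive over all genes tested. In 10 members both AKK libraries lay above both PBS libraries, as in 26.7% of all genes, and in 7 both lay below, as in 24.7%. These 17 make 47.2% of the 36, against 51.4% of all genes, so a lack of overlap is common in these 4 libraries and carries little weight for a single member.

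**Figure D1:**
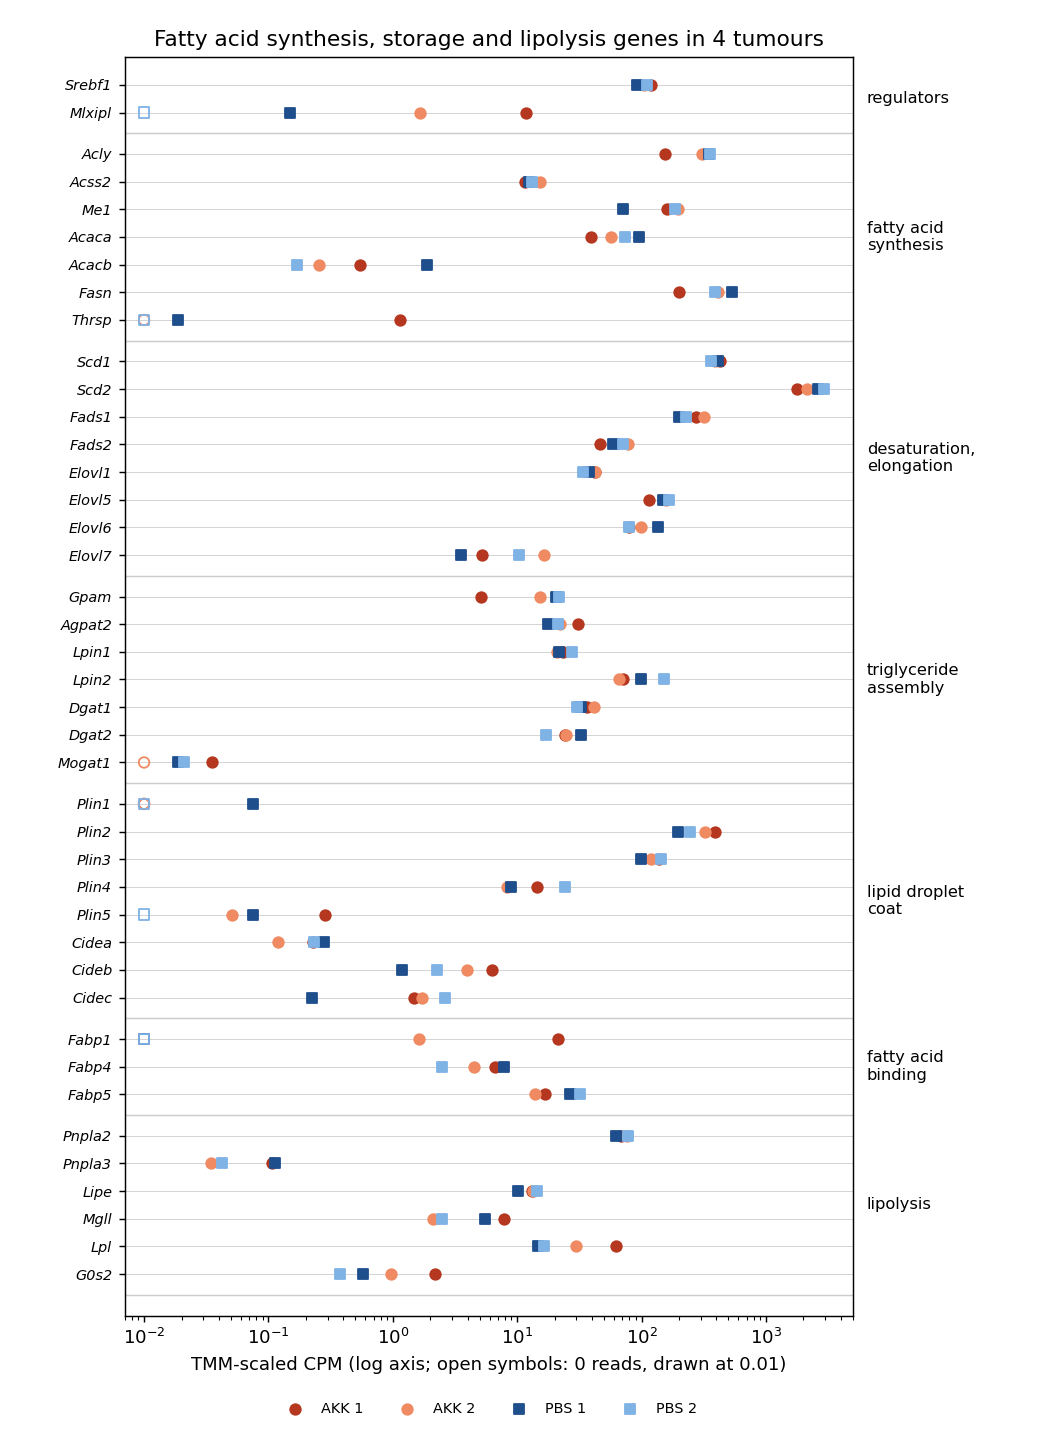
TMM-scaled CPM of the 41 members (log axis) in AKK 1, AKK 2, PBS 1 and PBS 2, 1 point per library, grouped by role. Fabp1 and Mlxipl lie far higher in both AKK libraries, and most other members differ less between AKK and PBS. The 5 members not tested lie low, with Thrsp at 1.15 CPM in AKK 1.

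The members that stood farthest from the PBS libraries were Fabp1 and Mlxipl, and the bases before their start sites are shown because these genes moved together between the libraries. Of the 41 members, 32 had start sites in the RefSeq promoter table of build GRCm38.p6, with 44 windows of 250 bases before a start. Capitals mark 5 motifs searched on both strands, namely the E-box CACGTG, the sterol regulatory element TCACNCCAC, the CCAAT box CCAAT, the direct repeat (GGNCAN followed at once by AGGNCA) that nuclear receptors such as PPAR and HNF4 bind, and the TATA box TATAAA. Each sequence reads 5′ to 3′ on the gene's strand and ends at the base before the start. The Fabp1 window lies at chr6:71199629-71199878 (plus strand), the Mlxipl window at chr5:135089640-135089889 (plus strand), the Elovl1 window at chr4:118429451-118429700 (plus strand) and the Fasn window at chr11:120824548-120824797 (minus strand). The Mlxipl window printed was picked as that with the direct repeat. The Elovl1 window is given as the remaining member with the direct repeat, and Fasn as a member with the CCAAT box alone.
Fabp1: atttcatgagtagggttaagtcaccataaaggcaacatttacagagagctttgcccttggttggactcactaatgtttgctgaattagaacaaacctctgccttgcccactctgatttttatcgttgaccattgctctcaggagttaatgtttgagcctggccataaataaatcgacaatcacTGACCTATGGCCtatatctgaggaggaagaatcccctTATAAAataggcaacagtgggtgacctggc
Mlxipl: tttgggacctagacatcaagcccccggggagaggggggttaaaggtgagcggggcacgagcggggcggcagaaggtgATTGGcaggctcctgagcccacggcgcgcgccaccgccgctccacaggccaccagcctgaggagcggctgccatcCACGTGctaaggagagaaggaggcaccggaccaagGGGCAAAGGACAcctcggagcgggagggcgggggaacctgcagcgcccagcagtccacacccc
Elovl1: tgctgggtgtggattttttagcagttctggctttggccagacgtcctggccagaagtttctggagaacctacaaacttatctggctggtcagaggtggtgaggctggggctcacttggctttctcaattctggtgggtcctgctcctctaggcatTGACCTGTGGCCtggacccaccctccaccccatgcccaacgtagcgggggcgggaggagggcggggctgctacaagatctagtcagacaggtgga
Fasn: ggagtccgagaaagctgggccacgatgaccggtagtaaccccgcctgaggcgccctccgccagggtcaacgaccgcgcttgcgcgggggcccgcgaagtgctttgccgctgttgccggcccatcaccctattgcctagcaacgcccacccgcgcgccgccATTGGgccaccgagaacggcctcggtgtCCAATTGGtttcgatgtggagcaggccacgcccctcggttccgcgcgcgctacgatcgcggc
The direct repeat was found in 3 of the 44 member windows, those of Fabp1, Mlxipl and Elovl1, and in 0.694% of all 32851 windows in the table. In Fabp1 it lay 67 to 56 bases before the start on the minus strand, and in Mlxipl 63 to 52 bases before it on the plus strand. The Mlxipl window also held an E-box 98 to 93 bases before the start, a motif found in 5 member windows and 6.02% of all windows. The Fasn window held 3 CCAAT boxes, a motif in 17 member windows and 33.8% of all windows. The other Mlxipl window held the sterol regulatory element, found in 1 member window and 1.05% of all, and the TATA box stood in 3 member windows and 12.4% of all. A match is a run of letters and does not show that a factor binds there.

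The 2 transcription factors of the pathway differed from each other in pattern. Mlxipl (ENSMUSG00000005373.13) encodes ChREBP, which turns on lipogenic genes when glucose is plentiful. It read 11.8 and 1.66 CPM in AKK 1 and AKK 2, from 665 and 97 reads, against 0.150 CPM in PBS 1, from 8 reads, and 0 reads in PBS 2, which allows up to 0.0631 CPM. Both AKK libraries lay above both PBS libraries, and AKK 1 was 7.08 times AKK 2. The log2 fold change was 6.39 (SE 1.48, adjusted p = 0.195 in edgeR and 0.0867 in DESeq2). Srebf1 (ENSMUSG00000020538.15) encodes SREBP-1, which activates most genes of fatty acid synthesis. It read 119 and 104 CPM in AKK against 91.3 and 110 CPM in PBS, and the groups overlapped (log2 fold change 0.15, SE 0.20, adjusted p = 0.731 in edgeR). Among the partners and regulators of these factors listed beside the members, 0 of 13 tested passed in edgeR or DESeq2. The sterol-sensing receptor gene Nr1h3 (LXR alpha), an activator of Srebf1, read 17.6 and 11.7 CPM in AKK against 8.98 and 5.99 CPM in PBS (log2 fold change 0.97, SE 0.35, adjusted p = 0.297 in edgeR). Mlxip, the ChREBP relative MondoA, read 38.0 and 52.7 CPM in AKK against 72.3 and 65.9 CPM in PBS (-0.61, SE 0.22, adjusted p = 0.297 in edgeR). Nr1h3 and Mlxip, and Abhd5 and Angptl4 given with the lipases, were picked after their values were seen.

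Fabp1 (ENSMUSG00000054422.7), the liver fatty acid-binding protein and one of the most abundant cytosolic proteins of hepatocytes, was the most one-sided member. It had 1202 and 95 reads in AKK 1 and AKK 2 (21.3 and 1.63 CPM) and 0 reads in PBS 1 and in PBS 2. Counted against the 3 reads that 0 reads over the PBS group allow, it was at least 380-fold higher in AKK, and at least 54.7-fold higher with AKK 2 alone. It passed in DESeq2 (adjusted p = 0.00749) and not in edgeR (adjusted p = 0.188). Fabp1 and Mlxipl passed the filter on low counts through their AKK reads, so that they had to differ to be tested. Without AKK 1 the log2 fold change of Mlxipl was 4.39, and edgeR called 0 of all 18207 genes in that fit. Without PBS 1 the adjusted p in edgeR was 0.00697 for Fabp1 and 0.00509 for Mlxipl, and without PBS 2 it was 0.0358 and 0.0746. Markers of hepatocytes moved with both genes. Of 10 markers, 9 lay above both PBS libraries in both AKK libraries, beside 26.7% of all genes. In these 9, AKK 1 was at 1.48 to 9.24 times AKK 2, while Fabp1 in AKK 1 was 13.1 times AKK 2. Ttr, Apoh, Fgb, Serpina1a, Tat, Cps1 and Cyp2e1 had at most 22 reads in a PBS library. They passed the filter through their AKK reads, so that they had to differ to be tested. The albumin gene Alb read 156 and 25.4 CPM in AKK against 0.300 and 0.988 CPM in PBS. The exception was Hnf4a, a liver transcription factor, at 48.7 and 119 CPM in AKK and 74.9 and 168 CPM in PBS. The summed level of the 10 markers was 456 and 222 CPM in AKK against 76.0 and 171 CPM in PBS, most of it Hnf4a in PBS. The part of hepatocyte content in the Fabp1 and Mlxipl differences was not tested. In such bulk RNA, fewer cells of a type and less RNA per cell cannot be told apart.

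**Figure D2:**
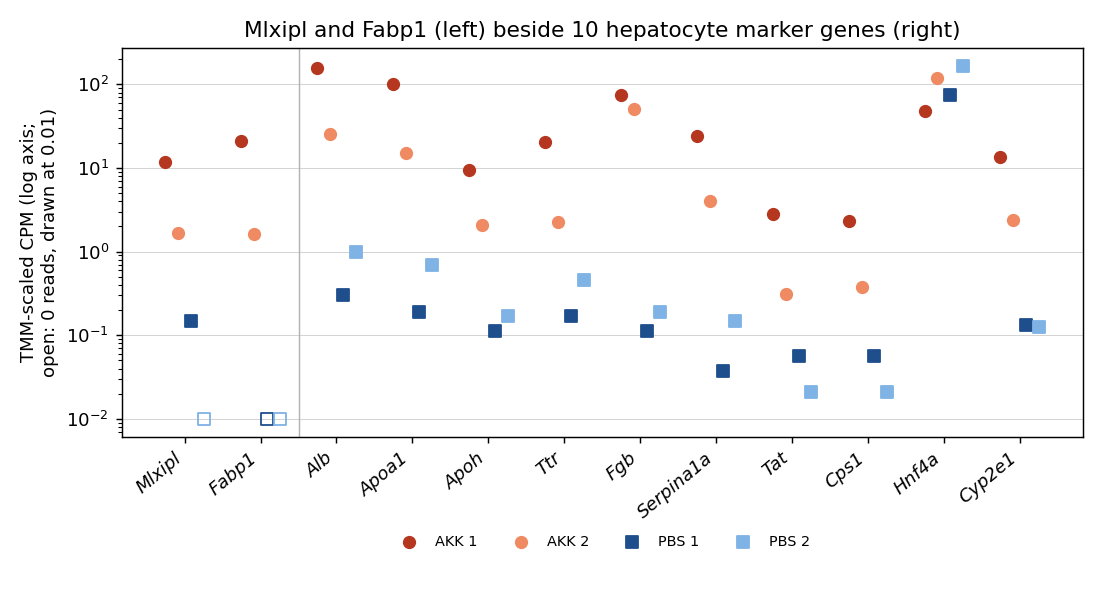
TMM-scaled CPM (log axis) of Mlxipl and Fabp1 beside 10 hepatocyte marker genes in each of the 4 libraries. In all but Hnf4a, AKK 1 lies above AKK 2 and both lie above the PBS libraries, which sit at or below 0.988 CPM.

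Thrsp, which encodes the lipogenic regulator Spot 14 and is a ChREBP target in liver, followed AKK 1 alone, with 65 and 0 reads in AKK 1 and AKK 2 against 1 and 0 reads in PBS 1 and PBS 2. It did not pass the filter, since its reads lay almost wholly in 1 library.

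Genes of the core synthesis path differed in direction, and 0 of them passed in edgeR or DESeq2. Of the 6 members tested, 2 were higher and 4 lower, beside 51.8% higher over all genes. Both AKK libraries lay below both PBS libraries in 2 of the 6, Acly and Acaca, beside 24.7% of all genes. Acaca (ENSMUSG00000020532.18), acetyl-CoA carboxylase 1, makes the malonyl-CoA that commits carbon to fatty acids. It read 38.9 and 57.1 CPM in AKK against 95.1 and 73.2 CPM in PBS, and the groups did not overlap (log2 fold change -0.81, SE 0.26, adjusted p = 0.263 in edgeR and 0.127 in DESeq2). Acly, the enzyme that splits citrate to acetyl-CoA, read 155 and 309 CPM in AKK 1 and AKK 2 against 351 and 353 CPM in PBS (-0.60, SE 0.35, adjusted p = 0.444 in edgeR). The PBS libraries were nearly equal, and AKK 2 lay close to them while AKK 1 was far lower. Fasn, fatty acid synthase, read 200 and 415 CPM in AKK 1 and AKK 2 against 534 and 386 CPM in PBS 1 and PBS 2, so that AKK 2 fell inside the PBS range (-0.58, SE 0.39, adjusted p = 0.498 in edgeR). Without AKK 1 the log2 fold change was -0.19 for Acly, -0.15 for Fasn and -0.56 for Acaca, and without AKK 2 it was -1.19, -1.21 and -1.12. AKK 1, the library with the most mitochondrial reads, was the lowest of the 4 in all 3 genes. Whether its make-up plays a part was not tested.

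The remaining synthesis members overlapped between the groups. The NADPH-producing malic enzyme gene Me1 read 160 and 197 CPM in AKK against 71.1 and 187 CPM in PBS, so that only PBS 1 was low. Acss2, which makes acetyl-CoA from acetate, lay between 11.5 and 15.4 CPM in every library. Acacb, the carboxylase that restrains fatty acid entry into mitochondria, was sparse and uneven, at 0.548 and 0.257 CPM in AKK against 1.89 and 0.168 CPM in PBS. Its direction turned without PBS 1, from which it takes 101 of its 109 PBS reads. The transcripts of Acaca and Me1 share 30.4 and 22.9% of their 50-base words with other annotated transcripts, so their counts can miss reads that map to more than 1 place. Of the 41 members, 10 shared more than 1% and 26 shared none.

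Desaturases and elongases included Scd2, the member with the highest level in every library, and most of them differed little between AKK and PBS. Of 8 members, 4 were higher and 4 lower, with 0 calls in edgeR or DESeq2. Scd2 (ENSMUSG00000025203.5), the stearoyl-CoA desaturase of brain and proliferating tissue, read 1795 and 2154 CPM in AKK against 2608 and 2938 CPM in PBS. Both AKK libraries lay below both PBS libraries (log2 fold change -0.49, SE 0.31, adjusted p = 0.470 in edgeR). Scd1, the main stearoyl-CoA desaturase of liver and fat, was level, at 427 and 393 CPM in AKK and 410 and 359 CPM in PBS (0.09, SE 0.22). Per kilobase of merged exon in GENCODE M21, which may not be the annotation behind the counts, Scd2 stood at 329 and 394 in AKK and 477 and 538 in PBS, against 87.2 and 80.3 in AKK and 83.8 and 73.5 in PBS for Scd1. Scd2 thus stood above Scd1 per kilobase in all 4 tumours. Reads of Scd1 per read of Scd2, a ratio that no scaling of libraries can alter, were 0.238 and 0.182 in AKK against 0.157 and 0.122 in PBS.

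Fads1, which inserts a double bond late in the synthesis of arachidonic acid, read 276 and 319 CPM in AKK against 201 and 229 CPM in PBS, without overlap (log2 fold change 0.47, SE 0.21, adjusted p = 0.351 in edgeR). Fads2, the desaturase of the first step of the same path, overlapped at 46.7 and 77.3 CPM in AKK and 59.5 and 70.9 CPM in PBS. Reads of Fads1 per read of Fads2 were 5.91 and 4.13 in AKK against 3.37 and 3.22 in PBS, with no overlap. Elovl1, which lengthens saturated very long chains, read 42.0 and 42.2 CPM in AKK against 37.9 and 33.6 CPM in PBS (0.24, SE 0.18, adjusted p = 0.547 in edgeR). The AKK libraries were almost equal, and the step to PBS was small. Elovl5, which acts on polyunsaturated chains, and Elovl6, which extends palmitate, overlapped between the groups at log2 fold changes of -0.21 and -0.27. Elovl7 split by library within both groups, at 5.18 and 16.6 CPM in AKK and 3.51 and 10.4 CPM in PBS.

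**Figure D3:**
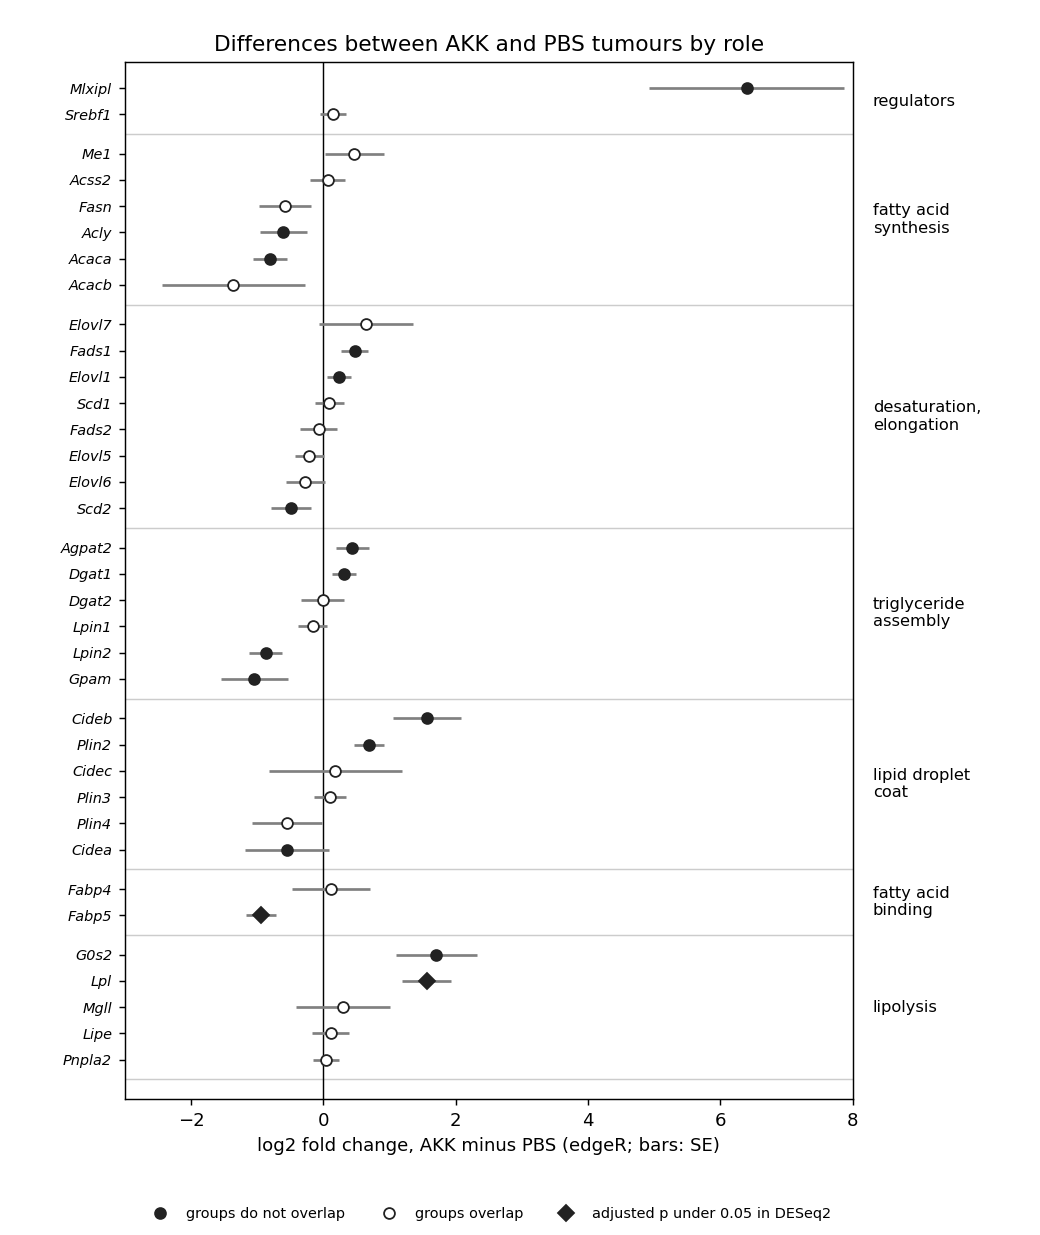
Log2 fold change, AKK minus PBS, with its SE (edgeR) for 35 tested members by role, without Fabp1, which has 0 reads in PBS. Filled symbols mark members whose groups do not overlap, and diamonds mark Fabp5 and Lpl, which passed in DESeq2, and most other members lie between -1 and 1.

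Members of triglyceride assembly differed in direction along the path. The first step, glycerol-3-phosphate acyltransferase of mitochondria (Gpam), read 5.17 and 15.4 CPM in AKK 1 and AKK 2 against 20.7 and 21.6 CPM in PBS (log2 fold change -1.04, SE 0.50, adjusted p = 0.380 in edgeR). Without AKK 1 the value was -0.46 and without AKK 2 it was -2.04. Agpat2, which adds the next acyl chain, read 30.6 and 22.2 CPM in AKK against 17.7 and 21.3 CPM in PBS (0.44, SE 0.25, adjusted p = 0.437 in edgeR). Here AKK 2 and PBS 2 were close to each other, and the groups only just parted.

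Lpin2 (ENSMUSG00000024052.17), a phosphatidate phosphatase that makes diacylglycerol and is a main lipin of liver and macrophages, read 71.4 and 65.6 CPM in AKK against 98.3 and 152 CPM in PBS (log2 fold change -0.87, SE 0.25, adjusted p = 0.245 in edgeR and 0.0715 in DESeq2). Both AKK libraries were near each other, and PBS 2 was the high one. Its relative Lpin1 overlapped at 23.3 and 20.8 CPM in AKK and 21.6 and 27.7 CPM in PBS. Reads of Lpin2 per read of Lpin1 were 3.07 and 3.15 in AKK against 4.56 and 5.49 in PBS. Dgat1, an enzyme of the last step to triglyceride, read 36.6 and 41.5 CPM in AKK against 32.8 and 30.1 CPM in PBS (0.31, SE 0.19, adjusted p = 0.454 in edgeR). Dgat2, which acts on newly made fatty acids in the same step, overlapped at 24.2 and 24.9 CPM in AKK and 32.4 and 17.1 CPM in PBS. Mogat1, the monoacylglycerol route to diacylglycerol, had 2 and 0 reads in AKK and 1 and 1 reads in PBS.

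Droplet members numbered 6 among those tested, with 0 calls in edgeR or DESeq2. Among coat proteins of the droplet, Plin2 (ENSMUSG00000028494.12) had the highest level in every library. It encodes perilipin 2, the coat of droplets in cells other than adipocytes, which is held stable by stored lipid. It read 391 and 325 CPM in AKK against 196 and 247 CPM in PBS, and the groups did not overlap (log2 fold change 0.69, SE 0.23, adjusted p = 0.280 in edgeR and 0.130 in DESeq2). With each library left out in turn its log2 fold change stayed between 0.53 and 0.84. Plin3, a coat protein of most cells, overlapped at 139 and 119 CPM in AKK and 98.5 and 143 CPM in PBS. Reads of Plin2 per read of Plin3 were 2.81 and 2.73 in AKK against 1.99 and 1.73 in PBS. Per kilobase of merged exon, Plin2 stood at 111 and 92.6 in AKK and 55.9 and 70.4 in PBS, above Plin3 at 36.8 and 31.5 in AKK and 26.0 and 37.8 in PBS. Plin4 followed far below both, and its direction turned without PBS 2, at 14.5 and 8.34 CPM in AKK against 8.87 and 24.5 CPM in PBS.

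The coats of specialised cells were near 0. Plin1, the perilipin of adipocytes, had 0 and 0 reads in AKK and 4 and 0 reads in PBS, and Plin5, that of oxidative tissues, had 16 and 3 reads in AKK and 4 and 0 reads in PBS. Adipocyte markers were likewise scarce. Of 11 markers, the leptin gene Lep and Slc7a10 had 0 reads in every library, and the adiponectin gene Adipoq had 7 and 2 reads in AKK and 13 and 0 in PBS. The summed level of the 11 was 4.79 and 0.908 CPM in AKK and 7.76 and 1.39 CPM in PBS, of which Car3, a gene that muscle and liver also express, made 3.70 and 0.188 CPM in AKK and 5.40 and 0.357 CPM in PBS.

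Cideb (ENSMUSG00000022219.9), the CIDE protein of hepatocytes that enlarges droplets and loads lipid onto very low-density lipoprotein, lay higher in both AKK libraries. It read 6.30 and 3.94 CPM in AKK against 1.18 and 2.27 CPM in PBS (log2 fold change 1.57, SE 0.51, adjusted p = 0.269 in edgeR and 0.0560 in DESeq2). The gene shares its place with reads of the opposite strand, 56 and 73 in AKK and 62 and 61 in PBS. Own-strand reads of Cideb numbered 356 and 230 in AKK and 63 and 108 in PBS. Counted without regard to strand it kept only 42 and 40 reads in AKK and 16 and 14 in PBS. These few reads were still higher in both AKK libraries. As with Fabp1, hepatocyte markers moved with Cideb, and their part was not tested. Cidec read 1.47 and 1.73 CPM in AKK against 0.225 and 2.61 CPM in PBS, with PBS 1 alone low. Cidea had 13 and 7 reads in AKK and 15 and 11 in PBS.

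The other fatty acid-binding proteins did not follow Fabp1. Fabp5 (ENSMUSG00000027533.10), the epidermal type found in epithelia, macrophages and many tumours, read 16.6 and 13.9 CPM in AKK against 26.5 and 32.2 CPM in PBS. Both AKK libraries lay below both PBS libraries, with a log2 fold change of -0.94 (SE 0.23, lower in 2 of 2 AKK libraries). DESeq2 called it lower (adjusted p = 0.0200), and it missed the threshold in edgeR (adjusted p = 0.206). Leaving out 1 library at a time gave -1.08 to -0.83, a narrow range among the members. Markers of macrophages lay lower as well, 7 of 8 below both PBS libraries, beside 24.7% of all genes. The summed level of the 8 was 578 and 582 CPM in AKK against 853 and 675 CPM in PBS. Most of it was Mrc1, at 360 and 341 CPM in AKK and 470 and 363 CPM in PBS (log2 fold change -0.25, SE 0.23). Kupffer cell markers went the other way, and all 9 endothelial markers lay below both PBS libraries, as given below with Lpl. The part of macrophage or endothelial content in the Fabp5 difference was not tested. Fabp4, the type of adipocytes, macrophages and capillary endothelium, overlapped, with 377 and 261 reads in AKK and 415 and 119 reads in PBS (0.11, SE 0.59, adjusted p = 0.939 in edgeR), and its direction turned without AKK 1 or without PBS 2.

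Among the lipases, Lpl was the member called higher by DESeq2. Lpl (ENSMUSG00000015568.15), lipoprotein lipase, frees fatty acids from circulating lipoproteins and is made by macrophages, fat and muscle, and hardly by adult hepatocytes. It read 62.6 and 29.9 CPM in AKK 1 and AKK 2 against 14.8 and 16.5 CPM in PBS. Both AKK libraries lay above both PBS libraries, AKK 1 at 2.09 times AKK 2, while the PBS libraries were nearly equal. The log2 fold change was 1.56 (SE 0.37, higher in 2 of 2 AKK libraries), with an adjusted p of 0.00589 in DESeq2 and 0.200 in edgeR. Without AKK 1 it was 0.93 and without AKK 2 it was 1.99. Markers of the cells that make the enzyme gave different patterns. The macrophage markers lay lower in AKK, as given for Fabp5. Skeletal muscle markers summed to 2.95 and 2.95 CPM in AKK against 257 and 9.15 CPM in PBS, and adipocyte markers were near 0. Kupffer cell markers lay above both PBS libraries in all 5 cases, beside 26.7% of all genes. These markers had at most 13 reads in a PBS library. They passed the filter on low counts through their AKK reads, so that they had to differ to be tested. They summed to 18.2 and 2.38 CPM in AKK against 0.337 and 0.0210 CPM in PBS, and their part was not tested.

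The partner of the enzyme went the other way. Gpihbp1, the endothelial protein that carries lipoprotein lipase to the capillary wall, read 2.42 and 2.00 CPM in AKK against 5.29 and 6.29 CPM in PBS (log2 fold change -1.39, SE 0.38, adjusted p = 0.231 in edgeR and 0.00982 in DESeq2). Reads of Lpl per read of Gpihbp1 were 25.8 and 14.9 in AKK against 2.80 and 2.63 in PBS. All 9 endothelial markers, Gpihbp1 among them, lay below both PBS libraries, beside 24.7% of all genes. Their summed level was 42.6 and 61.2 CPM in AKK against 175 and 130 CPM in PBS. The inhibitor gene Angptl4 overlapped at 361 and 245 CPM in AKK and 246 and 514 CPM in PBS.

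Of the members of intracellular lipolysis, 0 passed in edgeR or DESeq2. Pnpla2, adipose triglyceride lipase, which takes the first acyl chain off stored triglyceride, lay at 68.0 and 76.6 CPM in AKK and 62.7 and 77.4 CPM in PBS (log2 fold change 0.05, SE 0.20). Lipe, hormone-sensitive lipase of the next step, lay at 13.3 and 13.5 CPM in AKK and 10.2 and 14.6 CPM in PBS (0.11, SE 0.28). Mgll, which finishes the work on monoacylglycerol, split within both groups, with 439 and 123 reads in AKK and 295 and 119 reads in PBS (0.30, SE 0.71, adjusted p = 0.859 in edgeR). G0s2, which binds adipose triglyceride lipase and inhibits it, read 2.18 and 0.976 CPM in AKK against 0.581 and 0.378 CPM in PBS. Its AKK libraries lay above both PBS libraries, from 123 and 57 reads against 31 and 18 (1.71, SE 0.61, adjusted p = 0.293 in edgeR and 0.202 in DESeq2). Without AKK 1 the log2 fold change of G0s2 was 1.02, and without AKK 2 it was 2.17. Abhd5, the co-activator of the same lipase, read 29.5 and 31.6 CPM in AKK against 56.8 and 40.8 CPM in PBS (-0.68, SE 0.23, adjusted p = 0.278 in edgeR). Reads of Pnpla2 per read of G0s2 were 31.3 and 78.4 in AKK against 108 and 204 in PBS. Pnpla3, a liver droplet protein, had 6 and 2 reads in AKK and 6 and 2 in PBS.

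**Figure D4:**
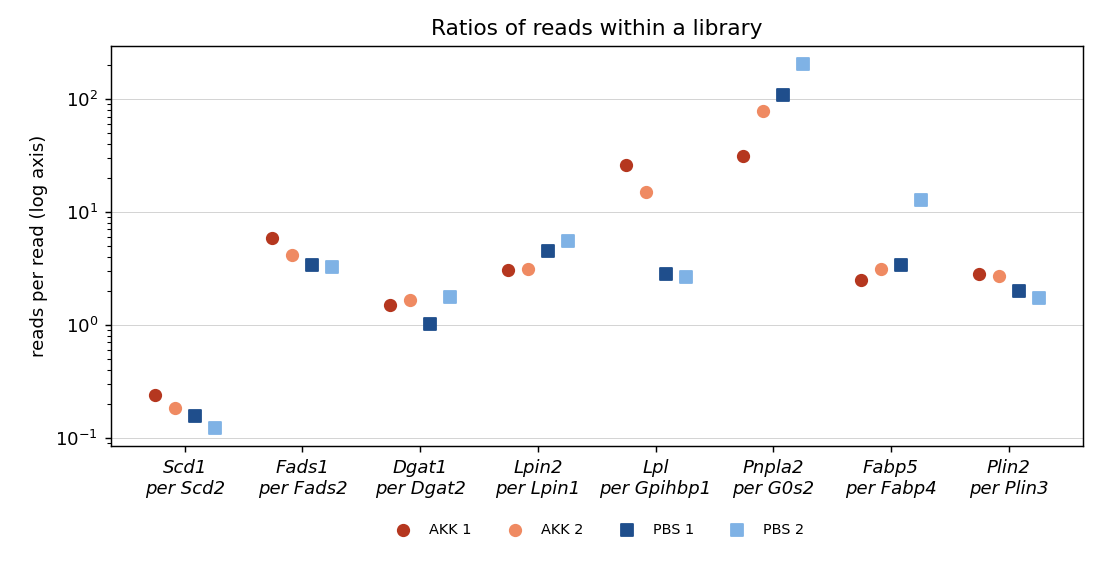
Reads of 1 gene per read of another within each library (log axis) for 8 pairs, in AKK 1, AKK 2, PBS 1 and PBS 2. The groups do not overlap in 7 of the 8 pairs, Dgat1 per Dgat2 being the exception, and Lpl per Gpihbp1 parts them most widely (25.8 and 14.9 against 2.80 and 2.63).

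These 8 pairs were chosen after the values were seen, so the ratios are a description. With 2 libraries per group, an exact permutation test of a single ratio cannot go below p = 0.333.

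A wider list of 78 other genes of the pathway also held genes of both directions. Of the 69 tested, 38 were higher and 31 lower, beside 51.8% higher over all genes, with a median log2 fold change of 0.05, and edgeR called 0. DESeq2 called 7, or 10.1% of those tested beside 5.02% of all genes. It called 4 as higher, beside 2.04% of all genes, and 3 as lower, beside 2.98%. The 4 higher genes were near 0 reads in PBS and passed the filter through their AKK reads, so that they had to differ to be tested. They were the fatty acid transporter and acyl-CoA synthetase gene Slc27a2, with 532 and 81 reads in AKK against 0 and 0 in PBS, the liver droplet protein gene Hsd17b13, with 341 and 86 against 0 and 3, the elongase gene Elovl2, with 82 and 15 against 1 and 1, and the esterase gene Aadac, with 135 and 25 against 3 and 0. In each, AKK 1 exceeded AKK 2, as in Fabp1. The 3 lower genes were Gpihbp1, Cd36 and Acsl6. Cd36, a fatty acid receptor of endothelium and macrophages, read 1.47 and 0.617 CPM in AKK against 4.54 and 3.22 CPM in PBS (log2 fold change -1.89, SE 0.57, adjusted p = 0.0286 in DESeq2 and 0.249 in edgeR). Acsl6, an acyl-CoA synthetase known from brain and muscle, had 1 and 9 reads in AKK against 1004 and 157 in PBS (-6.96, SE 1.25, adjusted p = 0.000888 in DESeq2 and 0.182 in edgeR). Skeletal muscle markers were likewise highest in PBS 1, and their part in the Acsl6 value was not tested. Acsl6 passed the filter through its PBS reads, so that it had to differ to be tested.

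In most members the libraries of a group differed by as much as the groups did. Of the 34 tested members with reads in every library, 11 differed between groups by more than both within-group gaps (32.4%), against 35.3% of all such genes. These 11 were Acaca, Scd2, Fads1, Elovl1, Lpin2, Dgat1, Plin2, Cideb, Fabp5, Lpl and G0s2. The median member differed by 0.45 between groups on the log2 scale, and by 0.38 between the AKK libraries and 0.35 between the PBS libraries. Leaving out 1 library at a time turned the direction of Fabp4, Mgll and Plin4 among the 20 members given with full values, and the other 17 kept theirs. Over all 36 members tested it turned 16, most of them with a log2 fold change near 0.

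**Figure D5:**
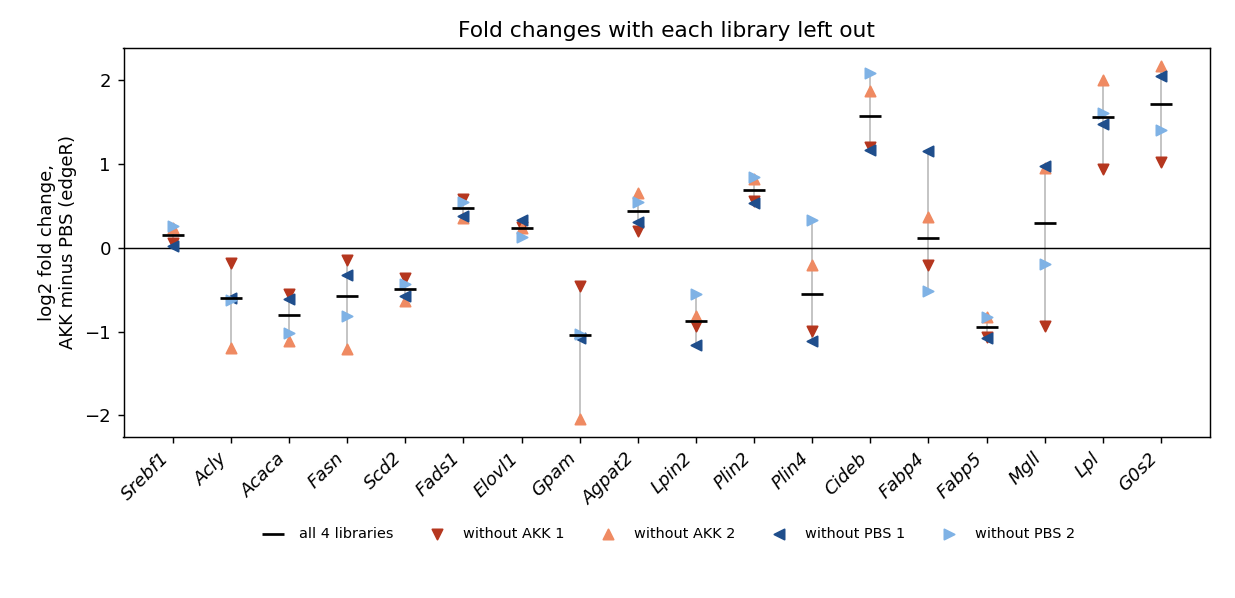
Log2 fold change, AKK minus PBS (edgeR), of 18 members with all 4 libraries (black bar) and with each library left out (triangles). Acly, Fasn and Gpam lie near or below -1 without AKK 2 and near 0 or above -0.5 without AKK 1, while Fabp5, Plin2 and Elovl1 hold a narrow range and Fabp4, Mgll and Plin4 cross 0.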

How the data were processed

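RNA of whole tumours was sequenced as pairs of 151 bp reads, per the labels' protocols. The authors deposited raw counts for each gene, unstranded and by strand, and STAR 2.5.2 and RSEM 1.2.31 are the tools listed in the submitters' processing notes. Build and annotation were not given in the sources used, and coordinates are printed only for RefSeq promoters. Counts on the coding strand were used (95.4 to 96.2% of reads assigned by strand). The summary rows, left out of library sizes and tests, held 8.97 to 12.3% unmapped, 4.20 to 6.66% multimapping, 11.4 to 13.5% reads outside genes and 1.18 to 1.37% ambiguous reads. Symbols were matched by identifier without version (48058 of 48526).

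AKK was compared with PBS by edgeR 4.0.16 in R 4.3.3 (quasi-likelihood test, legacy form, two-sided) with TMM scaling, filterByExpr, group as the only term, and a prior count of 0.125. P-values were adjusted by Benjamini and Hochberg over all 17479 genes kept, with a threshold of 0.05. Standard errors were derived from the F statistic. DESeq2 1.42.0 and limma-voom (limma 3.58.1) were alternatives, beside other scalings, filters, the edgeR 4 form, the unstranded column, a replicate block and leaving out each library. Both tests were checked on simulated counts with known changes. A count of 0 allows 3 reads, or 0.0514 to 0.0631 CPM, which covers counting error only. Members and lists were chosen with earlier results of these data known. Members given with full values were those called by edgeR or DESeq2, then those with the smallest p up to 3 per role, and any with groups apart and a log2 fold change of 1 or more. Shared 50-base words were searched in the GENCODE M21 transcripts.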

Additional observations from a re-analysis of the deposited data

Results flagged for a closer look

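Reads on the strand opposite to Srebf1, a column that the comparisons do not use, were more numerous in AKK than in PBS. They numbered 317 in AKK 1 and 174 in AKK 2, against 147 in PBS 1 and 110 in PBS 2, beside 6742 and 6069 own-strand reads in AKK and 4871 and 5236 in PBS. As a share of own-strand reads they made 4.70 and 2.87% in AKK against 3.02 and 2.10% in PBS, and the groups overlapped. AKK 1 also had the lowest share of reads on the coding strand over all genes (95.4%). The difference was not tested.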

How the results depend on the processing

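The median log2 fold change of the members stayed between 0.04 and 0.15 in all 13 alternatives, moving by less than the spread between replicates of 0.15. Calls depended on the test. Over all genes edgeR called 1, limma-voom 0, the edgeR 4 form 4, upper-quartile scaling 3, the replicate block 209, no filter on low counts 631 and DESeq2 878, and leaving out 1 library gave 0 to 324. Among members the main count of 0 became 3 in DESeq2 (Fabp1, Fabp5 and Lpl), 3 with no filter on low counts (Fabp1, Lpl and Mlxipl) and 2 with the replicate block (Fabp1 and Mlxipl), and leaving out 1 library gave 0 to 2 (Fabp1 without PBS 1 or PBS 2, Mlxipl without PBS 1). The cause was not tested. The deviations of same-numbered libraries correlated at -0.02 over 17479 genes. With 2 libraries per group, this value cannot settle whether libraries of the same number share more than the number. Of 20 members given with full values, 17 kept their direction in every alternative run. With 1 library left out, Fabp4 ranged over -0.51 to 1.15 (negative without AKK 1 at -0.20 and without PBS 2), Mgll over -0.93 to 0.97 (negative without AKK 1 and, at -0.20, without PBS 2) and Plin4 over -1.11 to 0.33 (positive without PBS 2). Upper-quartile scaling turned Dgat2, whose value is near 0. With 1 library left out, the lone library was assumed to vary like the others.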
